A study of Homo sapiens with 6 samples.

Results

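Axon guidance ligands and receptors are cell-surface and secreted proteins that tell a growing nerve fibre or a migrating cell where to go. The set described here holds 70 of the 58174 gene IDs in the deposited transcript table. They are the protein-coding genes whose symbols belong to the semaphorins of classes 3 to 7, plexins, neuropilins, SLIT ligands, ROBO receptors, netrins, UNC5 receptors, ephrins and EPH receptors. Of these 70 genes, 46 reached a mean of at least 1 CPM (counts relative to the library size after TMM scaling) over the 3 columns and are called measured. The other 24 were below that level, and 7 of them had 0 counts in every column.

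RNA came from MDA-MB-231, an established human triple-negative breast cancer line. The 6 samples fall into 3 groups of 2, labelled KO2 and KO1 (genotype ARID1A knockout) and NC (genotype control), with no treatment or time given. The ARID1A protein is part of the BAF complex, which moves nucleosomes along DNA. The sources used here do not state how the knockouts were made or whether KO1 and KO2 are single clones.

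The table holds 1 column per group, with no replicate number and no statement of whether the column joins both samples. No spread between cultures can therefore be given for any value, and each interval in brackets is a 95% interval that covers counting error only. A column differed from another by the size rule when 3 conditions held. The size of the log2 fold (computed with 2 added counts) reached 1, the exact interval of the fold excluded equality, and the gene was measured. The size rule has no p-value. Total estimated counts ranged from 25801499 to 26798753 per column, and genes of the mitochondrial genome took 16.9% of counts in KO2, 20.5% in KO1 and 12.8% in NC. ARID1A itself was at 83.9 CPM in KO2, 45.7 CPM in KO1 and 77.3 CPM in NC, so the RNA level of the targeted gene does not check the knockout labels. Receptor RNAs of the hormone-sensitive subtypes were low, with PGR at 0 counts in all columns and ESR1 at 0.50 CPM in KO2 and 0 counts in KO1 and NC.

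Semaphorins bind plexins, either directly or with a neuropilin as the ligand-binding partner, and plexins then act on small GTPases of the cytoskeleton. SLIT proteins bind ROBO receptors and netrins bind DCC, neogenin and UNC5 receptors. Ephrins are membrane-bound ligands of the EPH receptor tyrosine kinases, so that the signal passes between touching cells and in both directions. All 4 systems are also used outside the nervous system, in vessels, breast epithelium and tumours.

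Against NC, 6 of the 46 measured members were higher in both knockout columns and 2 were lower. The 6 were the SLIT receptor ROBO1, the semaphorins SEMA3A and SEMA6D, the plexin PLXNA3, the ephrin EFNB2 and the netrin NTN4, and the 2 were the plexins PLXNA4 and PLXNC1. The members' shares were 13% and 4.3%. Over all 14524 measured genes 6.22% were higher and 5.65% lower in both columns, and over the 12511 protein-coding ones 5.86% and 5.79%. Both comparisons use the same NC column. In bulk RNA, fewer cells with a transcript and less of it per cell cannot be told apart.

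The start regions of 4 of the 6 higher genes are shown because the deposited table places their transcripts by position. For ROBO1 it gives separate estimated counts to transcripts near 2 RefSeq starts that lie far apart. RefSeq (GRCh38.p14) gives windows for 5 of the 6 genes, and each sequence is the 250 bases before a RefSeq start, 5′ to 3′ on the gene's strand. The first ROBO1 window is chr3:79019460-79019709 (minus strand, internal start), and the second is chr3:79767999-79768248 (minus strand, far upstream start). EFNB2 is chr13:106535663-106535912 (minus strand), NTN4 is chr12:95790765-95791014 (minus strand) and PLXNA3 is chrX:154458031-154458280 (plus strand). Capitals mark matches on either strand to TGANTCA (bound by AP-1), GGGCGG (the GC box) or TATAAA (the TATA box). None of the 5 windows overlaps an exon of GENCODE release 29.
ROBO1 internal: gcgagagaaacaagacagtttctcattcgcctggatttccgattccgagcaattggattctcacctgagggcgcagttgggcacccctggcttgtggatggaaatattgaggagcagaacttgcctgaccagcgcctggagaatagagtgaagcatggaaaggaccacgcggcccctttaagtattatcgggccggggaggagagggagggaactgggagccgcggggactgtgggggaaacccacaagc
ROBO1 upstream: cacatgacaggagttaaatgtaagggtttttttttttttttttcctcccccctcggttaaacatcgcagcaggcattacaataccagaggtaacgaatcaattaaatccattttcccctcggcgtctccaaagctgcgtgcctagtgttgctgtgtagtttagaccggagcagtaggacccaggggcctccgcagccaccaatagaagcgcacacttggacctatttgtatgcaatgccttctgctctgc
EFNB2: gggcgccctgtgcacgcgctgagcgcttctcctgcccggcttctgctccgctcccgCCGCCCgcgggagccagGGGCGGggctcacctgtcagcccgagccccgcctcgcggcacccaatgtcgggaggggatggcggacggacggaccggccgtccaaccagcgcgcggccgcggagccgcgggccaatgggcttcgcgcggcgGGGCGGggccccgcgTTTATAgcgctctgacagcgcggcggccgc
NTN4: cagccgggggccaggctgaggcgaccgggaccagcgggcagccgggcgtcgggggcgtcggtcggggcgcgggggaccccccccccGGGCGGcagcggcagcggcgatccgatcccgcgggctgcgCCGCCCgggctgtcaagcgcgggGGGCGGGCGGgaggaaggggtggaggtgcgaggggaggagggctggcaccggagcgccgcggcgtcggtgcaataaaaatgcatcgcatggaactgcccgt
PLXNA3: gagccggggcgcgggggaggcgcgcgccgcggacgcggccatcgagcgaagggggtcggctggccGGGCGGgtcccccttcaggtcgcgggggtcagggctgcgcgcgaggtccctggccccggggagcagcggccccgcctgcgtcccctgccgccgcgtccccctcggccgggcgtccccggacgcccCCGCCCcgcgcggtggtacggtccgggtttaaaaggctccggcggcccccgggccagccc

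The windows shown for EFNB2, NTN4 and PLXNA3 held 40, 36 and 41 CpG dinucleotides, against a median of 11 over 35116 RefSeq windows of the same length. The ROBO1 windows held 12 (internal) and 9 (upstream). A second NTN4 window, at a start 397 bases from NTN4-201, held 20 and no GGGCGG, and the 3 SEMA6D windows, of which 2 overlap exons, held 9, 29 and 27. These 4 are not shown. GGGCGG matched 3 times in the windows shown of EFNB2, 4 times in NTN4 and 2 times in PLXNA3, counting overlapping matches, and 42.6% of all windows held it. TATAAA matched once in EFNB2 and in 10.7% of all windows, and TGANTCA, found in 6.57% of all windows, matched in none of the 5. A match is a description of the letters and not of a bound site. The main PLXNA3 transcript started at the RefSeq start itself (0 bases apart), that of NTN4 lay 6 bases away and that of EFNB2 548 bases away. For ROBO1, ROBO1-201 begins at the internal RefSeq start, ROBO1-204, with all 139 internal counts of KO1, 915 bases from it, and ROBO1-202 183 bases from the upstream one.

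ROBO1 showed the largest difference of any member in both knockout columns. ROBO1 (ENSG00000169855, chromosome 3, 78597240 to 79767815) was at 34.9 CPM in KO2, 7.74 CPM in KO1 and 0.0714 CPM in NC, where it rests on 2 counts. It was 489-fold (135 to 4042) higher in KO2 and 108-fold (29.6 to 901) higher in KO1, and KO2 was 4.51-fold (3.84 to 5.32) above KO1. Transcripts that start within 1000 bases of the internal RefSeq start held 837 of its counts in KO2, 139 in KO1 and 2 in NC. The single transcript near the far upstream start, ROBO1-202, held 0 counts in KO2, 39 in KO1 and 0 in NC. Within the internal group ROBO1-204 held 259 counts in KO2, 139 in KO1 and 0 in NC, and ROBO1-201 held 296 in KO2, 0 in KO1 and 2 in NC. Transcripts of the internal start thus held 85.6% (83.2 to 87.7) of the estimated ROBO1 count in KO2 and 78.1% (71.3 to 83.9) in KO1. The remaining 14.4% in KO2 lay in transcripts that begin further 3′, nearly all in the retained-intron transcript ROBO1-211 with 138 counts. Counts of transcripts that share exons are estimates, and how the authors' tool divided reads among them is not given in the sources used here.

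The only test between genotypes joined KO2 and KO1 as a group of 2 against NC (edgeR quasi-likelihood F test, two-sided, Benjamini-Hochberg adjustment over 18289 genes). It has 1 residual degree of freedom, takes the lone NC column to vary like the knockout columns, and measures the spread between 2 columns and not between cultures. It called 0 of the 52 members it could test, against 0.148% of all genes. At an unadjusted p under 0.05 there were 6 members (ROBO1, SEMA3A, SEMA6D, EFNB2, PLXNA3 and EPHA5), where 7.70% of all genes had one. ROBO1 had an adjusted p of 0.0971 in edgeR, with KO2 and KO1 both above NC. DESeq2 called 3 members, ROBO1 (adjusted p = 2.52e-06), SEMA3A (adjusted p = 0.0138) and NTN4 (adjusted p = 0.0415), against 1.79% of all genes. Without robust dispersion, a setting chosen after the data were seen, edgeR called ROBO1 alone (adjusted p = 0.0461).

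**Figure D1:**
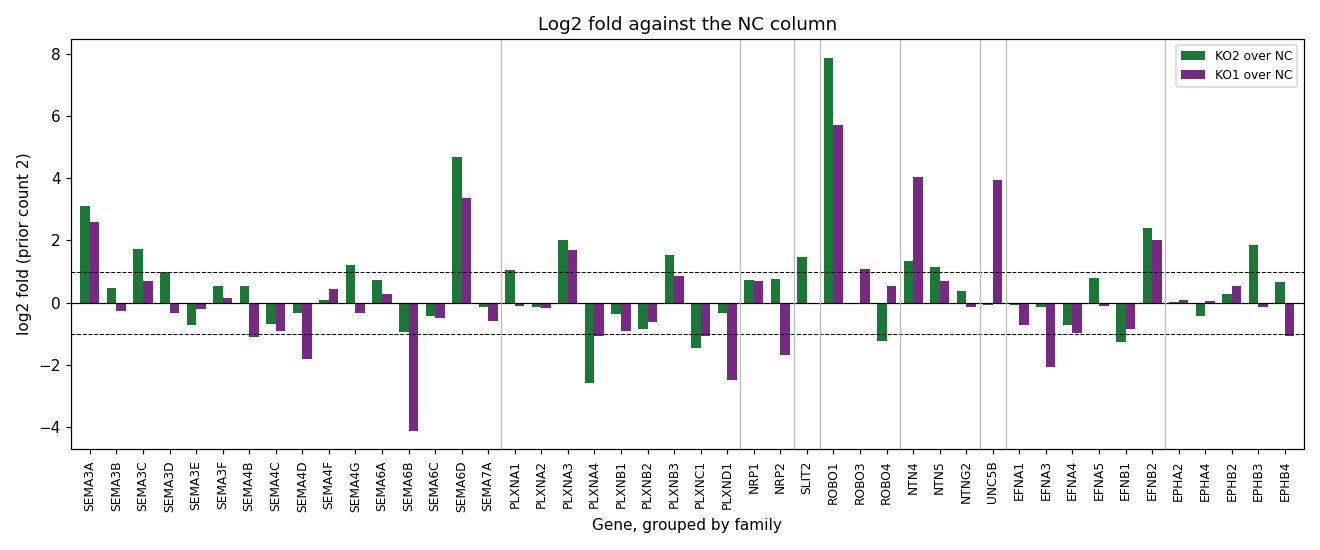
Log2 fold over NC (vertical axis, prior count of 2, no unit) of the 46 measured members, by family, for KO2 and KO1. Bars are single-column values with no error between cultures, and dashed lines mark the size threshold of 1. ROBO1 stands highest at 7.89 in KO2 and 5.73 in KO1, and SEMA6B in KO1 lowest at -4.13.

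The semaphorins, the ligands of the plexins, were the largest family, with 16 of 20 members measured. SEMA3A, a secreted repellent that signals through NRP1 and A-type plexins, was at 27.3 CPM in KO2, 18.7 CPM in KO1 and 3.07 CPM in NC. It was 8.89-fold (7.11 to 11.2) higher than NC in KO2 and 6.10-fold (4.83 to 7.78) higher in KO1. SEMA6D, a transmembrane ligand of PLXNA1, was at 3.71 CPM in KO2, 1.43 CPM in KO1 and 0.0714 CPM in NC, again on 2 counts in NC. Its folds were 52.0 (14.0 to 435) in KO2 and 20.1 (5.14 to 173) in KO1. Both knockout columns lay above NC for these 2 ligands, and for SEMA6D KO2 was also 2.59-fold (1.73 to 3.95) above KO1.

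SEMA3C, a secreted ligand of both neuropilins, was at 173 CPM in KO2, 84.5 CPM in KO1 and 52.3 CPM in NC. It passed the size rule in KO2, at 3.32-fold (3.13 to 3.52), and not in KO1, at 1.62-fold (1.51 to 1.73). SEMA3A, SEMA3C, SEMA3D and SEMA3E lie in the same region of chromosome 7. The median log2 fold of the 100 measured genes nearest to each was 0.69 in KO2 for each of the 4, and in KO1 it was 0.64 for SEMA3E and 0.52 for the others. SEMA3D was at 4.68 CPM in KO2, 1.83 CPM in KO1 and 2.32 CPM in NC, and it passed only between KO2 and KO1. SEMA3E, the ligand of PLXND1, was at 1.0 CPM in KO2, 1.48 CPM in KO1 and 1.71 CPM in NC and passed in no comparison. The neighbours' part in these folds was not tested. Relative to its neighbours SEMA3A still had log2 folds of 2.44 in KO2 and 2.06 in KO1, and SEMA3C had 1.04 in KO2 and 0.18 in KO1.

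SEMA6B, SEMA4D and SEMA4B passed as lower than NC in KO1 and not in KO2. SEMA6B, a transmembrane semaphorin that binds A-type plexins, was at 21.5 CPM in KO2, 2.30 CPM in KO1 and 41.5 CPM in NC. That is 18.03-fold (13.7 to 24.2) lower than NC in KO1, while KO2 was 1.94-fold (1.75 to 2.14) lower and did not pass. SEMA4D, the ligand of PLXNB1 and known as CD100 on lymphocytes, was at 27.4 CPM in KO2, 9.78 CPM in KO1 and 34.3 CPM in NC. SEMA4B was at 37.0 CPM in KO2, 11.6 CPM in KO1 and 25.3 CPM in NC. For these 3 genes KO2 and NC were high and KO1 low, and KO2 exceeded KO1 by 9.31-fold (7.03 to 12.6), 2.80-fold (2.41 to 3.27) and 3.19-fold (2.79 to 3.66). SEMA4G was at 2.39 CPM in KO2, 0.783 CPM in KO1 and 1.0 CPM in NC, and passed in KO2 as 2.39-fold (1.52 to 3.86) higher than NC. It overlaps MRPL43 on the other strand, which was at 33.5 CPM in KO2, 56.8 CPM in KO1 and 31.6 CPM in NC. The transcript SEMA4G-211, of the nonsense-mediated-decay type, held 80.6% of the SEMA4G count in KO2, 100% in KO1 and 85.7% in NC. Protein-coding SEMA4G transcripts held 5 counts in KO2, 0 in KO1 and 4 in NC. Of the semaphorins that passed nowhere, SEMA7A, the ligand of PLXNC1, had the highest mean level per length, with 20.0 TPM in KO2, 9.28 TPM in KO1 and 24.1 TPM in NC.

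The 9 plexins, the signalling receptors of the semaphorins, were all measured and did not share a direction. PLXNA3, which with NRP2 receives SEMA3F, was at 103 CPM in KO2, 83.1 CPM in KO1 and 25.4 CPM in NC. It was 4.04-fold (3.72 to 4.40) higher than NC in KO2 and 3.27-fold (3.002 to 3.57) higher in KO1. PLXNA3 overlaps LAGE3 on the other strand, which was at 41.8 CPM in KO2, 50.8 CPM in KO1 and 29.8 CPM in NC. PLXNB3, a receptor of SEMA5A, was at 44.3 CPM in KO2, 28.0 CPM in KO1 and 15.3 CPM in NC and passed in KO2 alone, at 2.89-fold (2.59 to 3.24). PLXNA3 and PLXNB3 lie near one end of the X chromosome. The nearest 100 genes there had a median log2 fold of 0.55 in KO2 and 0.61 in KO1. Relative to these neighbours PLXNB3 was at 0.98 in KO2 and no longer passed, whereas PLXNA3 was at 1.46 in KO2 and 1.10 in KO1. PLXNA1, the receptor of SEMA6D and, with NRP1, of SEMA3A, was at 314 CPM in KO2, 138 CPM in KO1 and 150 CPM in NC, or 2.09-fold (2.01 to 2.17) higher than NC in KO2.

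PLXNA4, a receptor of SEMA3A and class 6 semaphorins, was at 0.464 CPM in KO2, 1.48 CPM in KO1 and 3.18 CPM in NC. PLXNC1, the receptor of SEMA7A, was at 1.46 CPM in KO2, 1.91 CPM in KO1 and 4.14 CPM in NC. These were the only measured members that passed the size rule as lower than NC in both columns, by 6.85-fold (3.81 to 13.4) and 2.83-fold (1.97 to 4.15) in KO2 and by 2.15-fold (1.43 to 3.29) and 2.17-fold (1.52 to 3.14) in KO1. When only protein-coding transcripts were summed, the KO1 log2 folds of PLXNA4 and PLXNC1 were -0.87 and -0.91 and neither passed there. PLXNC1 overlaps CEP83 on the other strand, which was at 6.50 CPM in KO2, 14.6 CPM in KO1 and 5.71 CPM in NC. PLXND1, the receptor of SEMA3E in vessels, was at 39.6 CPM in KO2, 8.91 CPM in KO1 and 50.1 CPM in NC, 5.62-fold (4.85 to 6.54) lower than NC in KO1. With all transcripts summed, PLXNB2 had the highest level per length of the plexins. It was at 94.5 TPM in KO2, 82.4 TPM in KO1 and 150 TPM in NC. Its summed CPM lay 1.79-fold (1.72 to 1.85) below NC in KO2 and 1.54-fold (1.48 to 1.59) below NC in KO1, short of the threshold. Protein-coding transcripts held 20.4% of the PLXNB2 count in KO2, 14.2% in KO1 and 22.3% in NC, the rest being mainly of the retained-intron type. They were at 35.3 CPM in KO2, 28.6 CPM in KO1 and 68.8 CPM in NC, and their fold is not given here. Those of PLXNA1 were at 310 CPM in KO2, 136 CPM in KO1 and 149 CPM in NC.

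Of the neuropilins, which lend binding strength for class 3 semaphorins and for VEGF, NRP2 differed between columns and the total of NRP1 did not pass. NRP2 was at 40.3 CPM in KO2, 7.26 CPM in KO1 and 23.5 CPM in NC. It was 3.24-fold (2.73 to 3.87) lower than NC in KO1, and 5.56-fold (4.72 to 6.58) higher in KO2 than in KO1. NRP1 was at 88.7 CPM in KO2, 87.5 CPM in KO1 and 53.7 CPM in NC.

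The NRP1 transcripts differed more than the gene total, a comparison chosen after the values were seen. NRP1 is known to make full-length receptors and shorter secreted forms that lack the membrane segment. The 4 transcripts that reach the most 3′ end of the gene held 79.0% (77.3 to 80.6) of the NRP1 count in KO2, 56.5% (54.3 to 58.7) in KO1 and 38.1% (35.6 to 40.6) in NC. The 2 transcripts that share a short 3′ end, NRP1-203 and NRP1-204, held 16.3% (14.8 to 17.8) in KO2, 35.6% (33.5 to 37.7) in KO1 and 55.0% (52.5 to 57.6) in NC. On the CPM scale the long transcripts were at 70.1 in KO2, 49.4 in KO1 and 20.4 in NC. The short ones were at 14.4 in KO2, 31.1 in KO1 and 29.5 in NC. The long transcripts were thus high in both knockout columns, and the short ones low in KO2 alone.

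**Figure D2:**
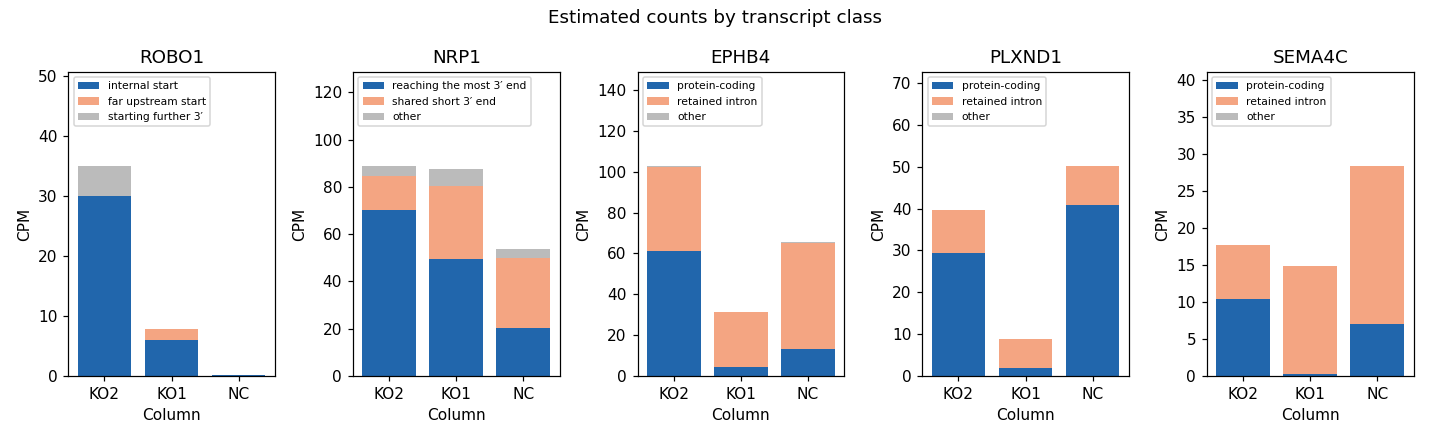
Stacked CPM (vertical axes, own scale per panel) of transcript classes of ROBO1, NRP1, EPHB4, PLXND1 and SEMA4C in KO2, KO1 and NC; transcript types are those of GENCODE release 29. Bars are single-column estimates. The long NRP1 transcripts reach 70.1 CPM in KO2, and the protein-coding part of EPHB4 is at 61.0 CPM in KO2 against 4.39 CPM in KO1 and 12.9 CPM in NC.

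In the SLIT and ROBO system, SLIT2 was the only measured ligand of 3. SLIT2 was at 17.2 CPM in KO2, 5.999 CPM in KO1 and 6.21 CPM in NC, 2.77-fold (2.33 to 3.32) higher than NC in KO2. The transcript SLIT2-204 held 45.3% of the SLIT2 count in KO2, 10.1% in KO1 and 8.05% in NC. In KO2 both this ligand and its receptor ROBO1 were therefore above NC, at 5.24 TPM and 10.5 TPM, while in KO1 they were at 1.82 TPM and 1.85 TPM and in NC at 2.40 TPM and 0.01 TPM.

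The other measured ROBO receptors, ROBO3 and ROBO4, were not above NC in KO2, and both were above it in KO1. ROBO4, a receptor typical of endothelium, was at 29.4 CPM in KO2, 101 CPM in KO1 and 69.6 CPM in NC, 2.37-fold (2.18 to 2.57) lower than NC in KO2 and 1.449-fold (1.36 to 1.54) higher in KO1, short of the threshold. ROBO3, a receptor of crossing axons, was at 16.3 CPM in KO2, 35.4 CPM in KO1 and 16.8 CPM in NC, 2.11-fold (1.88 to 2.37) higher than NC in KO1. All 416 counts of its only protein-coding transcript with counts, ROBO3-221, lay in KO1. That transcript is 1520 bases long and begins at position 124877388. Every ROBO3 transcript with counts in any column begins at 124876121 or later, while the gene spans 124865386 to 124881470. None of these counts therefore lies in a transcript that covers the 5′ part of the gene. In KO2 and NC, 87.7% and 92.3% of ROBO3 counts were in retained-intron transcripts. The transcript ROBO3-208 held 51.0% of the ROBO3 count in KO2, 9.94% in KO1 and 40.9% in NC. ROBO4-201 held 51.9% of the ROBO4 count in KO2, 30.4% in KO1 and 62.9% in NC. The protein-coding share of ROBO4 was 51.9% (48.4 to 55.3) in KO2, 34.8% (32.9 to 36.8) in KO1 and 62.9% (60.7 to 65.1) in NC. Of 10 endothelial markers, of which ROBO4 is itself a member described here, TIE1 and ERG had 0 counts in all columns and VWF 0 counts in KO2 and KO1 and 4 counts in NC. Only ROBO4, ESAM and PECAM1 were measured.

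Among the netrins, laminin-related secreted or anchored guidance cues, NTN4 carried the family's difference. NTN4, which binds laminin in basement membranes, was at 17.3 CPM in KO2, 113 CPM in KO1 and 6.75 CPM in NC. It was 2.56-fold (2.16 to 3.04) higher than NC in KO2 and 16.8-fold (14.5 to 19.6) higher in KO1, and KO2 was 6.57-fold (5.96 to 7.25) below KO1. NTN5 was at 1.82 CPM in KO2, 1.30 CPM in KO1 and 0.786 CPM in NC and passed in KO2, at 2.32-fold (1.38 to 4.01). NTNG2, a membrane-anchored netrin, was at 6.78 CPM in KO2, 4.74 CPM in KO1 and 5.25 CPM in NC and passed nowhere. NTN1, the classical netrin, had 8 counts in KO2, 0 in KO1 and 8 in NC. Of the UNC5 receptors, which turn netrin signals into repulsion, UNC5B alone was measured, at 0.607 CPM in KO2, 11.1 CPM in KO1 and 0.643 CPM in NC. It was 17.2-fold (10.7 to 29.6) higher than NC in KO1, while KO2 lay 1.06-fold (0.515 to 2.19) below NC. KO1 was thus the high column for both NTN4 and UNC5B.

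Among the ephrins, EFNB2, a transmembrane ligand that marks arteries and binds EPHB4, was at 69.2 CPM in KO2, 52.3 CPM in KO1 and 12.97 CPM in NC. It was 5.33-fold (4.77 to 5.98) higher than NC in KO2 and 4.03-fold (3.58 to 4.54) higher in KO1. Its neighbours on chromosome 13 had median log2 folds of -0.18 in KO2 and -0.41 in KO1. The related EFNB1 was at 6.03 CPM in KO2, 8.17 CPM in KO1 and 14.8 CPM in NC, 2.44-fold (2.04 to 2.94) lower in KO2 and 1.80-fold (1.52 to 2.16) lower in KO1, where it did not pass. The 2 B-type ephrins measured therefore lay on opposite sides of NC. EFNA3, an ephrin anchored by a lipid, was at 4.03 CPM in KO2, 1.0 CPM in KO1 and 4.43 CPM in NC, 4.43-fold (2.82 to 7.25) lower than NC in KO1. EFNA5 had the highest level per length of the ephrins that passed nowhere, at 18.2 TPM in KO2, 6.70 TPM in KO1 and 10.4 TPM in NC.

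The EPH receptors were led by EPHA2, which differed little. EPHA2 was at 338 CPM in KO2, 357 CPM in KO1 and 333 CPM in NC, 1.01-fold (0.985 to 1.04) higher in KO2 and 1.07-fold (1.04 to 1.10) higher in KO1. It also had the highest level per length of its family in each column, at 157 TPM in KO2, 113 TPM in KO1 and 139 TPM in NC. EPHB3 was at 12.5 CPM in KO2, 3.09 CPM in KO1 and 3.43 CPM in NC, 3.64-fold (2.90 to 4.62) higher than NC in KO2. EPHB4, the receptor of EFNB2, was at 103 CPM in KO2, 31.3 CPM in KO1 and 65.4 CPM in NC, 2.09-fold (1.91 to 2.28) lower than NC in KO1 and 3.28-fold (3.02 to 3.56) higher in KO2 than in KO1. In KO1 the ligand EFNB2 was thus above NC and its receptor EPHB4 below it. EPHB4 overlaps SLC12A9 on the other strand, and how the counting treated strand is not given in the sources used here.

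Transcript types differed between columns in EPHB4, PLXND1 and SEMA4C, and in other members too. The retained-intron transcript EPHB4-206 held 39.4% of the EPHB4 count in KO2, 84.4% in KO1 and 79.0% in NC. Protein-coding EPHB4 transcripts were at 61.0 CPM in KO2, 4.39 CPM in KO1 and 12.9 CPM in NC, and on these alone KO2 lay 2.27 log2 units above NC, against 0.65 for the whole gene. For PLXND1 the protein-coding share was 74.0% (71.3 to 76.6) in KO2, 20.5% (15.2 to 26.7) in KO1 and 81.4% (79.3 to 83.4) in NC. PLXND1-201 held 74.0% of the PLXND1 count in KO2, 16.6% in KO1 and 79.8% in NC, and PLXND1-204 held 15.9% in KO2, 59.0% in KO1 and 8.77% in NC. SEMA4C, chosen here after its values were seen, had 59.0% (54.5 to 63.3) of its count in protein-coding transcripts in KO2, 1.46% (0.475 to 3.37) in KO1 and 24.7% (21.7 to 27.8) in NC. In these 3 genes the protein-coding share was lowest in KO1. Over the 46 measured members it was lowest in KO1 for 14 and highest in KO1 for 17. The transcript SEMA4D-208 held 65.6% of the SEMA4D count in KO2, 0 counts in KO1 and 82.0% in NC, while SEMA4D-212 held 3.52% in KO2, 56.0% in KO1 and 0.312% in NC. PLXNB3 counts lay in PLXNB3-209 in KO2 and NC (85.5% and 88.3%) and in PLXNB3-201 in KO1 (82.9%), transcripts whose starts lie close together.

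**Figure D3:**
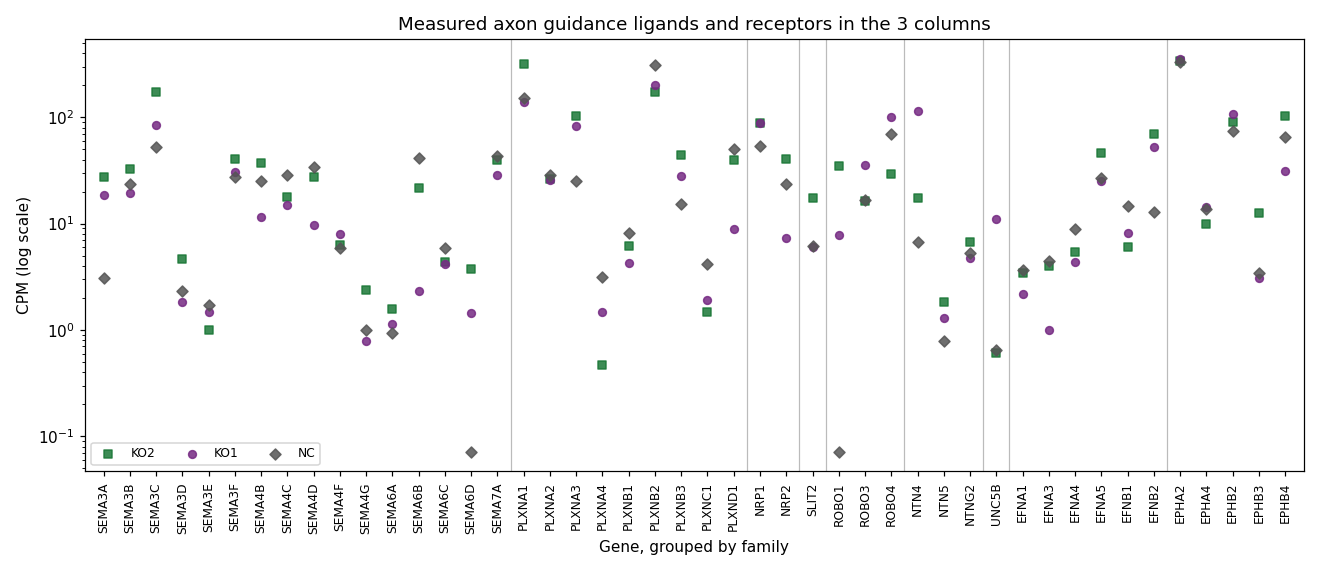
CPM (vertical axis, log scale) of the 46 measured members in KO2 (squares), KO1 (circles) and NC (diamonds), grouped by family. Points are single-column values. NC is the lowest point for ROBO1, SEMA3A, SEMA6D, PLXNA3, EFNB2 and NTN4, and KO1 lies far below both other columns for SEMA6B, PLXND1 and NRP2.

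By comparison, 13 of 46 measured members were higher than NC in KO2 (28.3%, against 11.0% of all measured genes and 10.5% of protein-coding ones) and 4 were lower (8.7%, against 9.98% and 9.62%). In KO1, 8 were higher (17.4%, against 15.4% and 14.0%) and 9 lower (19.6%, against 17.4% and 18.2%), shares near the background. The median log2 fold of the members was 0.32 in KO2 and -0.15 in KO1, where all measured genes had -0.00 and -0.01. With all transcripts summed, no member passed as higher than NC in one knockout column and lower in the other. Even so, 6 (EPHB4, NRP2, PLXNA1, ROBO4, SEMA3B and SEMA4B) lay on opposite sides of NC with both intervals excluding equality. The share of all measured genes that did so is not given here. On protein-coding transcripts alone EPHB4 was at 61.0 CPM in KO2, 4.39 CPM in KO1 and 12.9 CPM in NC.

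The knockout columns also differed from each other. KO2 was above KO1 for 15 measured members (32.6%, against 14.9% of all measured genes and 15.5% of protein-coding ones) and below it for 5 (10.9%, against 11.2% and 9.58%), with a median log2 fold of 0.46 over members and 0.04 over all measured genes. Of the 9 members lower than NC in KO1, 7 were also higher in KO2 than in KO1, namely EFNA3, EPHB4, NRP2, PLXND1, SEMA4B, SEMA4D and SEMA6B. Both comparisons use the KO1 column, and of the 2532 measured genes lower in KO1 1376 (54.3%) were likewise higher in KO2 than in KO1. The 5 lower in KO2 than in KO1 were NTN4, UNC5B, ROBO3, ROBO4 and PLXNA4. The 19 measured members that passed in no comparison had log2 folds between -0.84 and 0.79 in KO2 and between -0.99 and 0.70 in KO1 against NC.

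**Figure D4:**
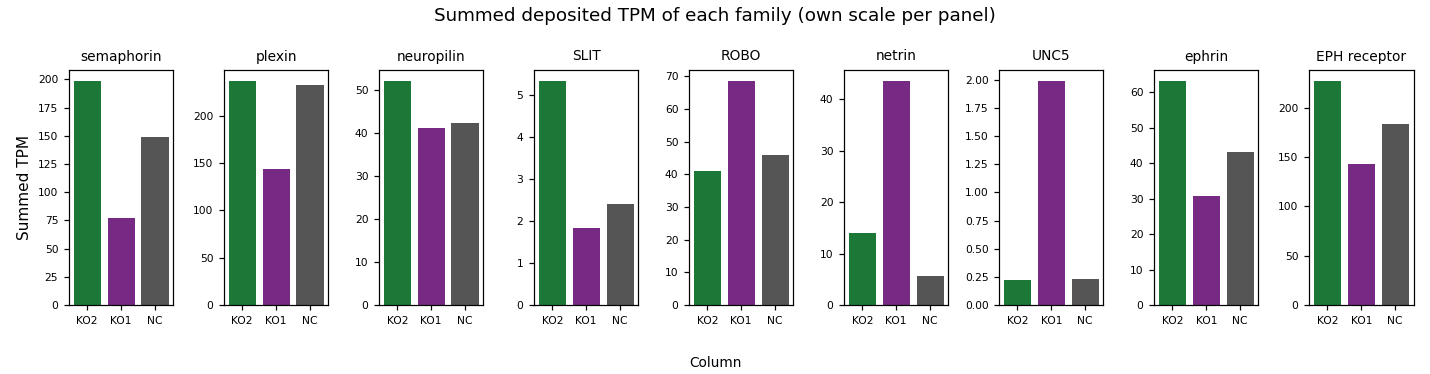
Summed deposited TPM (vertical axes, own scale per panel) of the 9 families in KO2, KO1 and NC, all members included. Bars are single-column sums. Semaphorins sum to 199 TPM in KO2, 77.0 in KO1 and 149 in NC, netrins to 14.0, 43.6 and 5.58 TPM in KO2, KO1 and NC, and over all measured genes TPM folds of KO1 over NC lie 0.37 log2 units below the CPM folds at the median.

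Of 118 matched genes that act beside or below these receptors, 96 were measured, of which 11 were higher (11.5%, against 6.22% of all measured genes) and 6 lower (6.25%, against 5.65%) than NC in both knockout columns. In KO2 17 were higher and 11 lower (17.7% and 11.5%, against 11.0% and 9.98%), and in KO1 18 were higher and 17 lower (18.8% and 17.7%, against 15.4% and 17.4%). For each list that follows, the shares of all measured genes higher and lower in both columns are the same 6.22% and 5.65%. Of 18 measured partner receptors and binding proteins 4 were higher in both and 2 lower (median log2 fold 0.44 in KO2 and 0.17 in KO1). NEO1, neogenin, a netrin receptor, was at 29.6 CPM in KO2, 8.35 CPM in KO1 and 3.21 CPM in NC. DAG1, dystroglycan, which binds SLIT2 in mouse, was at 45.4 CPM in KO2, 10.9 CPM in KO1 and 5.32 CPM in NC, and the receptor kinase MST1R at 23.3 CPM in KO2, 15.7 CPM in KO1 and 6.71 CPM in NC. On the lower side, BOC, a receptor partner of Hedgehog signalling, was at 3.28 CPM in KO2, 2.48 CPM in KO1 and 9.97 CPM in NC. GPC1, a glypican, was at 33.3 CPM in KO2, 16.8 CPM in KO1 and 72.3 CPM in NC.

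Of 20 measured effectors of SLIT and ROBO 0 were higher in both columns and 2 lower (medians -0.16 in KO2 and -0.46 in KO1). SRGAP1, a GTPase-activating protein that binds ROBO1, was at 5.43 CPM in KO2, 5.83 CPM in KO1 and 30.4 CPM in NC, 5.60-fold (4.71 to 6.70) lower in KO2 and 5.22-fold (4.34 to 6.31) lower in KO1. SRGAP1 was therefore low in the columns in which ROBO1 was high. EVL, an actin regulator of the ENA and VASP family, was at 15.5 CPM in KO2, 7.39 CPM in KO1 and 33.7 CPM in NC.

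Of 25 measured effectors of plexins 2 were higher in both columns and 0 lower (medians -0.40 in KO2 and -0.10 in KO1). ARHGEF12, a RHOA activator bound by B-type plexins, was at 220 CPM in KO2, 166 CPM in KO1 and 33.2 CPM in NC. RND1, a small GTPase that binds plexins, was at 1.89 CPM in KO2, 12.1 CPM in KO1 and 0.607 CPM in NC.

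Of 21 measured effectors of EPH receptors 3 were higher in both columns and 2 lower (medians 0.21 in KO2 and -0.34 in KO1). RASA1, a RAS GTPase-activating protein that binds EPHB receptors, was at 117 CPM in KO2, 101 CPM in KO1 and 25.6 CPM in NC. The ubiquitin ligase CBL was at 10.4 CPM in KO2, 32.0 CPM in KO1 and 3.18 CPM in NC, and GRIP1, a scaffold of B-type ephrins, at 2.86 CPM in KO2, 2.04 CPM in KO1 and 0.357 CPM in NC. The kinase SRC was lower, at 40.8 CPM in KO2, 31.6 CPM in KO1 and 142 CPM in NC, as was VAV2, a guanine nucleotide exchange factor, at 23.1 CPM in KO2, 14.5 CPM in KO1 and 54.4 CPM in NC. Of 12 measured effectors of netrins 2 were higher in both columns and 0 lower (medians 0.13 in KO2 and -0.46 in KO1). DAPK1, a death-associated kinase that binds UNC5B, had 0 counts in NC and was at 5.43 CPM in KO2 and 3.96 CPM in KO1, at least 50.6-fold higher in KO2 and at least 36.9-fold higher in KO1 with NC set to 3 counts per column. UNC5CL, a relative of the UNC5 receptors, was at 3.68 CPM in KO2, 3.52 CPM in KO1 and 0.964 CPM in NC. Of the 118 genes edgeR tested 101 and called 0 (against 0.148% of all genes), with 14 at an unadjusted p under 0.05 (13.9%, against 7.70%). DESeq2 called 3 of 100, against 1.79% of all genes.

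Marker genes of cell types in which guidance genes are typical were mostly low. Of 12 neuronal markers 7 had 0 counts in every column and 3 were measured, with a summed level of 18.5 CPM in KO2, 18.4 CPM in KO1 and 21.1 CPM in NC, most of it GAD1. SNAP25 passed as lower than NC in both knockout columns, at 0.750 CPM in KO2, 0.174 CPM in KO1 and 3.61 CPM in NC. GAD1 and SYT1 passed in neither. The 10 endothelial markers summed to 114 CPM in KO2, 236 CPM in KO1 and 105 CPM in NC, nearly all ESAM and ROBO4. PECAM1, also measured, was at 5.93 CPM in KO2, 0.609 CPM in KO1 and 3.36 CPM in NC. It was 5.52-fold (3.13 to 10.5) lower than NC in KO1, against the direction of the sum. ESAM, a junction protein, was at 77.7 CPM in KO2, 134 CPM in KO1 and 31.1 CPM in NC, 2.50-fold (2.31 to 2.70) higher than NC in KO2 and 4.31-fold (4.0 to 4.66) higher in KO1. In KO2, KO1 and NC the 7 glial markers summed to 44.2, 31.9 and 29.6 CPM (4 measured, SOX10 and S100B at 0), mainly MBP. GFAP, on 10 counts in NC, passed as higher in both knockout columns (2.32, 0.869 and 0.357 CPM in KO2, KO1 and NC). ERBB3 passed as lower in KO1 alone (4.28, 2.30 and 5.18 CPM in KO2, KO1 and NC). The 7 fibroblast markers summed to 39.8, 50.5 and 32.8 CPM (2 measured, DCN at 0), with COL1A1 at 36.3, 49.8 and 19.8 CPM and PDGFRB at 2.39, 0.435 and 10.8 CPM, so that these 2 lay on opposite sides of NC in both knockout columns. Of the leukocyte genes CD14 was at 5.71 CPM in KO2, 1.30 CPM in KO1 and 5.82 CPM in NC, and CSF1R at 3.14 CPM in KO2, 1.04 CPM in KO1 and 3.75 CPM in NC, both low in KO1. Of the 13 markers of the line, 10 were measured, with VIM at 2925 CPM in KO2, 4719 CPM in KO1 and 3411 CPM in NC. VIM passed in neither knockout column. In KO1 4 of the 10 were higher and 1 lower than NC, against 15.4% and 17.4% of all measured genes. In KO2 2 were higher and 0 lower, against 11.0% and 9.98%. In KO2, KO1 and NC, EGFR (317, 429 and 152 CPM) and EPCAM (15.4, 20.3 and 6.46 CPM) were higher in both knockout columns. ERBB2 (52.4, 28.0 and 75.7 CPM) was lower in KO1. The part of other cells in the results was not tested.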

How the data were processed

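RNA of 6 MDA-MB-231 samples, 2 for each of KO2, KO1 and NC, was made into libraries with a stranded total RNA kit, per the labels' protocols. The only table gives 1 column per group in 3 units for 199167 transcripts. Per the file headers the authors gave each transcript a count, a TPM and an FPKM value. The deposited counts are whole numbers and were handled like estimated counts, since transcripts that share exons have separate values. The deposited TPM were summed per gene. FPKM, in 3 value columns, were not used. Per the submitters' processing notes CASAVA, Bowtie2, featureCounts and hg38 were used, without roles or versions, and the tool that estimated transcripts is not given in the sources used here. Columns were matched to groups by name.

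Counts were summed per gene ID. Symbols were found for 57392 of the gene IDs, and gene and transcript types come from GENCODE release 29, which holds 57836 of them. Positions are those deposited (hg38). TMM scaling and the quasi-likelihood test used edgeR 4.0.16 (filterByExpr, robust), and DESeq2 1.42.0 was the alternative test (R 4.3.3, Python 3.11.15). On simulated data with known folds, alike in both knockout columns, the script returned those folds at the median. The deposited knockout columns differ from each other, so the simulation does not check the edgeR calls made here. Intervals of folds and shares are exact (Clopper-Pearson), for folds on the split of a gene's summed count between 2 columns. Reads carry no molecular identifiers, so they are not independent molecules. A fold against 0 counts used 3 counts per column. The named genes are all measured members that passed the size rule in any comparison, the member with the highest mean TPM among the others of each family, and up to 3 genes per direction of each list. Transcripts were named when they reached 5 CPM and their share differed by 30 percentage points between columns. ROBO1-202, ROBO1-211, those of NRP1 and SEMA4C, and the shares of EPHA4, PLXNB1, PLXNB2, SEMA4F, SEMA4G and SEMA3B were chosen after their values were seen. The sum over leukocyte markers is not reported here. The members, lists and rules were chosen with earlier results of these data known.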

Additional observations from a re-analysis of the deposited data

How the results depend on the processing

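Under the alternative settings, of which 1 was chosen after seeing the data (only protein-coding transcripts summed), no log2 fold that passed the size rule changed sign. Among 648 values of named members under an alternative, 12 had another sign than the main one, all of folds that had not passed. These include ROBO4 in KO1 (0.53, and -0.21 with protein-coding transcripts alone). In KO1 the 8 higher members became 4 on the summed TPM scale, and the 9 lower members became 16 at a 1.5-fold threshold. In KO2 the 4 lower members became 2 with summed TPM and 9 at 1.5-fold. Lower in both columns were 2 members, which became 7 at 1.5-fold and 0 with protein-coding transcripts alone. Summed TPM also gave 2, of which 0 were the same genes, and 1 of the 2 was kept relative to neighbouring genes. The 5 members lower in KO2 than in KO1 became 2 with summed TPM. The count higher in both columns stayed between 4 and 9 against 6, and all 6 genes were kept under each alternative but summed TPM, which kept 4. The shares of all measured genes that passed the size rule under these alternatives are not given here. A threshold of 1.5-fold lets more genes of any kind pass, so the larger counts there do not describe the members alone. The edgeR count of 0 members became 3 with DESeq2, 3 without a filter on low values (NTN4, ROBO1 and SEMA6D) and 1 without robust dispersion (ROBO1, also chosen after seeing the data). The causes were not tested. Over all genes these tests called between 0 and 493, against 27. ROBO1's adjusted p ranged from 1.85e-07 to 0.420 over these settings, DESeq2 included. Scaling by total counts moved the median of all measured genes by -0.23 in KO1 on the log2 scale, summed TPM by -0.37 and protein-coding transcripts by 0.10. Leaving out KO2 or KO1 leaves no residual degree of freedom, so no test was run without either. No paired analysis was possible because the columns carry no replicate number. SEMA6D and ROBO1 rest on 2 counts in NC, so their folds have wide intervals.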

Other observations

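The 24 members below 1 CPM include 9 of 14 EPH receptors, 3 of 6 netrins and 3 of 4 UNC5 receptors, with at most 37 counts in any column. EPHA5, an EPH receptor of the nervous system, had 4 counts in KO2, 0 in KO1 and 37 in NC, and an unadjusted p of 0.0247 (adjusted p = 0.504) when edgeR set KO2 and KO1 against NC. EFNB3, also a B-type ephrin, had 30 counts in KO2, 0 in KO1 and 4 in NC. SLIT1 had 12 counts in KO2, 2 in KO1 and 0 in NC, and ROBO2, the close relative of ROBO1, had 7 in KO2 and 0 in KO1 and NC. EPHA3, EPHA7, EPHA8, EPHB1, NTNG1, SEMA5B and UNC5D had 0 counts in every column. The measured members nearest the limit were SEMA6A, with a mean of 1.21 CPM, and NTN5, with 1.30 CPM, and those just below it were SEMA4A with 0.596 CPM and SEMA3G with 0.504 CPM.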
